A study of Mus musculus with 11 samples.

Results

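The 34 genes described here make sterols or fatty acids in the liver, or control that work. They comprise 18 sterol members, from Hmgcs1 to Stard4, and 16 fatty acid members, from Acly to Lpin1. Members were chosen by name, and every probe set that the platform annotation gives to exactly 1 of these symbols was taken, which gave 62 probe sets of the 22626 on the array that are not controls. The probe set with the highest mean over 11 samples represents its gene, out of 12393 genes that have a probe set of their own.

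The study compared livers of 5 wild-type (WT) male C57BL/6J mice with livers of 6 Gsr-null males of the same strain, which lack glutathione reductase, the enzyme that returns oxidised glutathione to its reduced form. All mice were 15 to 20 weeks old and their livers were taken from 2 to 4 p.m., with no treatment given in the labels. Samples carry the number of their biological replicate, 1 to 5 in WT and 1 to 6 in Gsr-null. The submitters' own names in the titles keep this order, but their Gsr-null numbers start at 4, so Gsr-null 1 here is their Gsr-null_4. How the Gsr gene was disrupted, whether animals were littermates and when they had last eaten are not given in the sources used here. Each value is a log2 level of 1 probe set on 1 array, so a difference of 1 is a doubling, and levels of different genes are not compared.

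Cholesterol is built from acetyl-CoA through mevalonate, the isoprenoids, squalene and lanosterol, and most enzymes of this route are transcribed under SREBP-2, a factor that is released from the endoplasmic reticulum when membrane sterol is low. Fatty acids are built from the same acetyl-CoA through malonyl-CoA, then lengthened, desaturated and joined to glycerol. In liver these genes follow feeding, through SREBP-1c, which insulin raises, and through ChREBP, which senses sugar. The sterol and the fatty acid sides of lipid synthesis therefore have related but separate controls.

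Upstream sequence is shown for 4 members, to set the regulatory context of the sterol and of the fatty acid side beside the values that follow. RefSeq promoter windows of assembly GRCm38.p6, 250 bases before to 50 after each start, were matched by symbol to 27 of the 34 members. The windows were searched on both strands for TCACNCCAC, a form of the sterol regulatory element that SREBPs bind, and for CCAAT, the box bound by NF-Y. The 250 bases before the start are printed 5′ to 3′ on the gene's strand, and capitals mark a match to either motif. Hmgcs1 is shown because it opens the sterol route (chr13:119690101-119690350, plus strand), and Idi1 as a second sterol enzyme (chr13:8885356-8885605, plus strand). Fasn is the central fatty acid enzyme (chr11:120824548-120824797, minus strand), and Elovl6 the member that varied most between samples (chr3:129532136-129532385, plus strand).
Hmgcs1: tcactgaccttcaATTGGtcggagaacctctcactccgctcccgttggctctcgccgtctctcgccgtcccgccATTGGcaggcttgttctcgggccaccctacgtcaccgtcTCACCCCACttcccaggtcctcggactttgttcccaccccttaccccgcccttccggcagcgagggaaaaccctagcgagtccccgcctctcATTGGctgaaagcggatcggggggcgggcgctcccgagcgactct
Idi1: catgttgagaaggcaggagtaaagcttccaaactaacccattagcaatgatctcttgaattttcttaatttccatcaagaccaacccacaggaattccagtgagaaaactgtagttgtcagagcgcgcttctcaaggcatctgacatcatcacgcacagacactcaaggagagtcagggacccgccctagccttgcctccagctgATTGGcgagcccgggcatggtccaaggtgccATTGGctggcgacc
Fasn: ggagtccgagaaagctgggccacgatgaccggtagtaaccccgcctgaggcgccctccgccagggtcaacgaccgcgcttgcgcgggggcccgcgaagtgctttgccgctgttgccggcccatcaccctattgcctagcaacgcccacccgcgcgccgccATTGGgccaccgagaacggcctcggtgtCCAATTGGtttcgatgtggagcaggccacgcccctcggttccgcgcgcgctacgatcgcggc
Elovl6: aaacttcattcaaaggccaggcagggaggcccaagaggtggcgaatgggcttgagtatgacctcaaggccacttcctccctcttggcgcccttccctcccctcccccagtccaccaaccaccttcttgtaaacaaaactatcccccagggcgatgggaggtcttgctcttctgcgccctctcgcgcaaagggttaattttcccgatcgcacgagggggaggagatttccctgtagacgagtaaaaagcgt

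Every sterol member with a window, 14 of 14 genes, held a CCAAT match, as did 9 of 13 fatty acid genes. Counted by window, since some genes have several starts, these were 14 of 17 and 10 of 17, against 37.4% of all 32851 promoter windows. TCACNCCAC was found in 1 of 17 windows on each side, that of Hmgcs1, at -137 to -129 from the start, and 1 of Mlxipl, against 1.24% of all windows. The GC box GGGCGG was present in 13 of 14 sterol and 6 of 13 fatty acid genes, or 14 of 17 and 7 of 17 windows, against 35.7% of all windows. CACGTG, an E-box, occurred in 3 of 17 sterol and 2 of 17 fatty acid windows, against 7.15% of windows. In the upstream sequence of Fasn 2 of its 3 CCAAT matches overlap on opposite strands, and that of Elovl6 holds neither TCACNCCAC nor CCAAT. A match is a run of letters and shows no binding, and the lack of a match does not show that a site is absent. Dgat2, Fads1, Fdft1, Fdps, Scd1, Sqle and Stard4 had no window and were not searched.

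The test was run on the 9560 probe sets with a log2 level over 4 in 5 or more samples, which represent 6022 genes and 30 of the 34 members, 16 sterol and 14 fatty acid. Mvk, Hsd17b7, Acaca and Pnpla3 did not pass this filter and have levels only. Gsr itself was 6.62 to 6.93 in the 5 WT livers and 4.71 to 5.29 in the 6 Gsr-null livers, with no overlap. The array of Gsr-null 6 had 9094 probe sets above 4, against 9377 to 9603 on the others, and the 5th percentile of Gsr-null 2 and 3 was 1.79 and 1.76, against 1.53 to 1.62. The mean 3′ to 5′ gap of the array's Actb and Gapdh controls, a sign of RNA quality, was under 1 in WT 2 and 4 and in Gsr-null 1, 2 and 3, and above 1 in the other 6 samples. The tissue label was checked on hepatocyte markers: all 8 were measured and tested, with a summed log2 level of 16.40 to 16.72 in WT and 16.48 to 16.76 in Gsr-null samples. Fewer cells of a type and less RNA per cell cannot be told apart in whole liver.

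No member passed the test between genotypes. Limma, adjusted by Benjamini-Hochberg over all 9560 probe sets, called 0 of 16 sterol and 0 of 14 fatty acid members, and 0.387% of all tested probe sets, 0.167% as higher and 0.22% as lower in Gsr-null livers. By representative probe set, 2 sterol members, Dhcr7 and Stard4, and 0 fatty acid members had an unadjusted limma p under 0.05, against 8.36% of all tested probe sets. In 0 of the 30 members did the genotypes not overlap, against 1.36% of probe sets. Signs were counted on each side of lipid synthesis. Of 16 sterol members 12 had a positive difference, with a median of 0.19, and of 14 fatty acid members 5 did, with a median of -0.099. Of all tested probe sets 43.3% had a positive difference, and their median was -0.029. The fatty acid share lay near that of all probe sets, and the fatty acid median turned positive with array weights (0.095), without Gsr-null 6 (0.088) and without Gsr-null 1 (0.021).

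**Figure D1:**
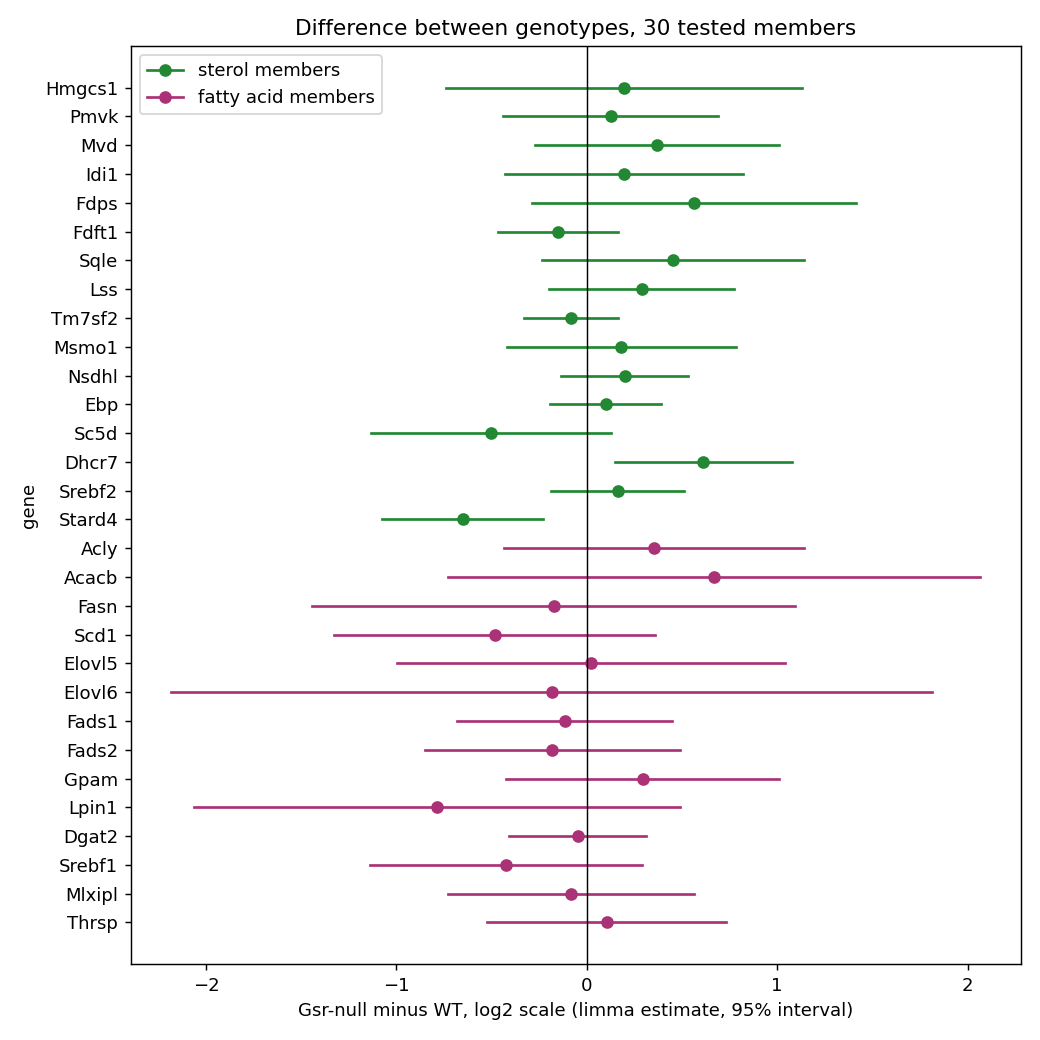
Difference between Gsr-null (n = 6) and WT (n = 5) livers on the log2 scale for the 30 tested members, with points for the limma estimate and lines for its 95% interval. Of the 30 intervals, those of Dhcr7 (0.15 to 1.08) and Stard4 (-1.08 to -0.23) leave out 0 before adjustment, and that of Elovl6 is the widest, from -2.18 to 1.81.

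The sterol route was described from its start. Hmgcs1, the cytosolic synthase that forms HMG-CoA, was 10.97, 9.58, 10.55, 10.998 and 9.98 in WT 1 to 5. In Gsr-null 1 to 6 it was 11.45, 10.49, 8.86, 11.13, 11.12 and 10.60. Gsr-null 3 was the lowest and Gsr-null 1 the highest of all 11 samples, and the groups overlapped. The difference was 0.19 (SE 0.43, limma adjusted p = 0.988), and 3 further tested probe sets gave 0.40, 0.21 and 0.25, each with its lowest value of 9.23, 8.62 and 6.51 in Gsr-null 3.

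Of the other mevalonate enzymes, 4 passed the filter and all 4 differences were positive. Fdps, which joins isoprenoid units to farnesyl diphosphate, was 6.83, 8.21, 7.16, 8.56 and 7.70 in WT samples. In Gsr-null 1 to 6 it was 9.09, 8.11, 8.90, 8.33, 8.12 and 6.99, with overlap between the groups and a difference of 0.56 (SE 0.39, limma adjusted p = 0.841). Mvd, the mevalonate diphosphate decarboxylase, differed by 0.37 (95% interval -0.27 to 1.01), from a WT mean of 3.99 near the filter level. Idi1, the isopentenyl diphosphate isomerase, differed by 0.20 and Pmvk, the phosphomevalonate kinase, by 0.13. Within samples of lower control 3′ to 5′ gap, however, Mvd and Pmvk differed by -0.087 and -0.34, and within those of higher gap Idi1 by -0.031. Fdps was positive in both sets, at 0.31 and 0.58. Mvk, the mevalonate kinase, was 3.05 to 3.93 in WT and 3.34 to 4.22 in Gsr-null samples, below the filter in all but Gsr-null 1.

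At the squalene step Sqle, the epoxidase that is a control point of the route, was 6.24, 5.80, 7.29, 6.55 and 6.78 in WT livers. In Gsr-null 1 to 6 it was 8.11, 7.15, 6.95, 6.66, 6.43 and 6.63, and Gsr-null 1 was above every other sample. Sqle differed by 0.46 (SE 0.316, limma adjusted p = 0.842). Within samples of lower control 3′ to 5′ gap its difference was 1.23, and within those of higher gap -0.20. Lss, the lanosterol synthase, differed by 0.29 on its representative and 0.050 on its second probe set, and Fdft1, the squalene synthase, by -0.15 and -0.063.

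Among the enzymes that turn lanosterol into cholesterol, Dhcr7, which reduces 7-dehydrocholesterol in the last step, had the largest difference of the sterol list in the positive direction. Dhcr7 was 8.30, 8.17, 9.32, 8.34 and 8.84 in WT samples. In Gsr-null samples it was 9.66, 9.11, 8.86, 9.32, 9.25 and 9.03, so that WT 3 alone among WT samples reached the Gsr-null range. The difference was 0.61 (95% interval 0.15 to 1.08), 1.53-fold on the linear scale, with a limma adjusted p = 0.407. Its lowest adjusted p under any alternative was 0.19, without WT 3, at a difference of 0.79. Within the samples of lower and higher control gap it was 0.96 and 0.38.

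Sc5d, the desaturase just before Dhcr7, had the opposite sign. Its levels were 10.53, 11.80, 10.82, 11.48 and 10.94 in WT samples, and 11.25, 10.82, 10.82, 10.74, 10.40 and 9.65 in Gsr-null 1 to 6. Sc5d differed by -0.50 (SE 0.289, limma adjusted p = 0.741), and its lowest value was in Gsr-null 6. The 4 other tested enzymes of this stretch had small differences. Msmo1, the sterol methyl oxidase, differed by 0.18, Nsdhl, a decarboxylating dehydrogenase, by 0.20, Ebp, the sterol isomerase, by 0.099 and Tm7sf2, a sterol reductase, by -0.083. Hsd17b7, the 3-ketosteroid reductase of the route, was 3.50 to 4.19 in WT and 3.21 to 5.16 in Gsr-null samples and did not pass the filter, with its highest value in Gsr-null 1.

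Srebf2, which encodes SREBP-2, was 4.21, 4.22, 4.58, 4.27 and 4.61 in WT and 4.58, 4.61, 4.97, 4.47, 4.02 and 4.58 in Gsr-null livers. It lay close to the filter level, and the difference of 0.16 had a 95% interval of -0.19 to 0.51. Stard4, a soluble protein that carries cholesterol between membranes, had the smallest p of the members' representative probe sets. The second probe set of Lpin1 had a smaller one. Stard4 was 8.30, 8.16, 7.70, 8.19 and 8.05 in WT samples, and 7.80, 7.01, 7.80, 7.76, 7.21 and 6.98 in Gsr-null samples. WT 3 alone lay within the Gsr-null range. The difference was -0.65 (SE 0.195, limma adjusted p = 0.282), and the second probe set gave -0.72 (SE 0.395, limma adjusted p = 0.713). Within the samples of lower and higher control gap the values were -0.64 and -0.70.

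**Figure D2:**
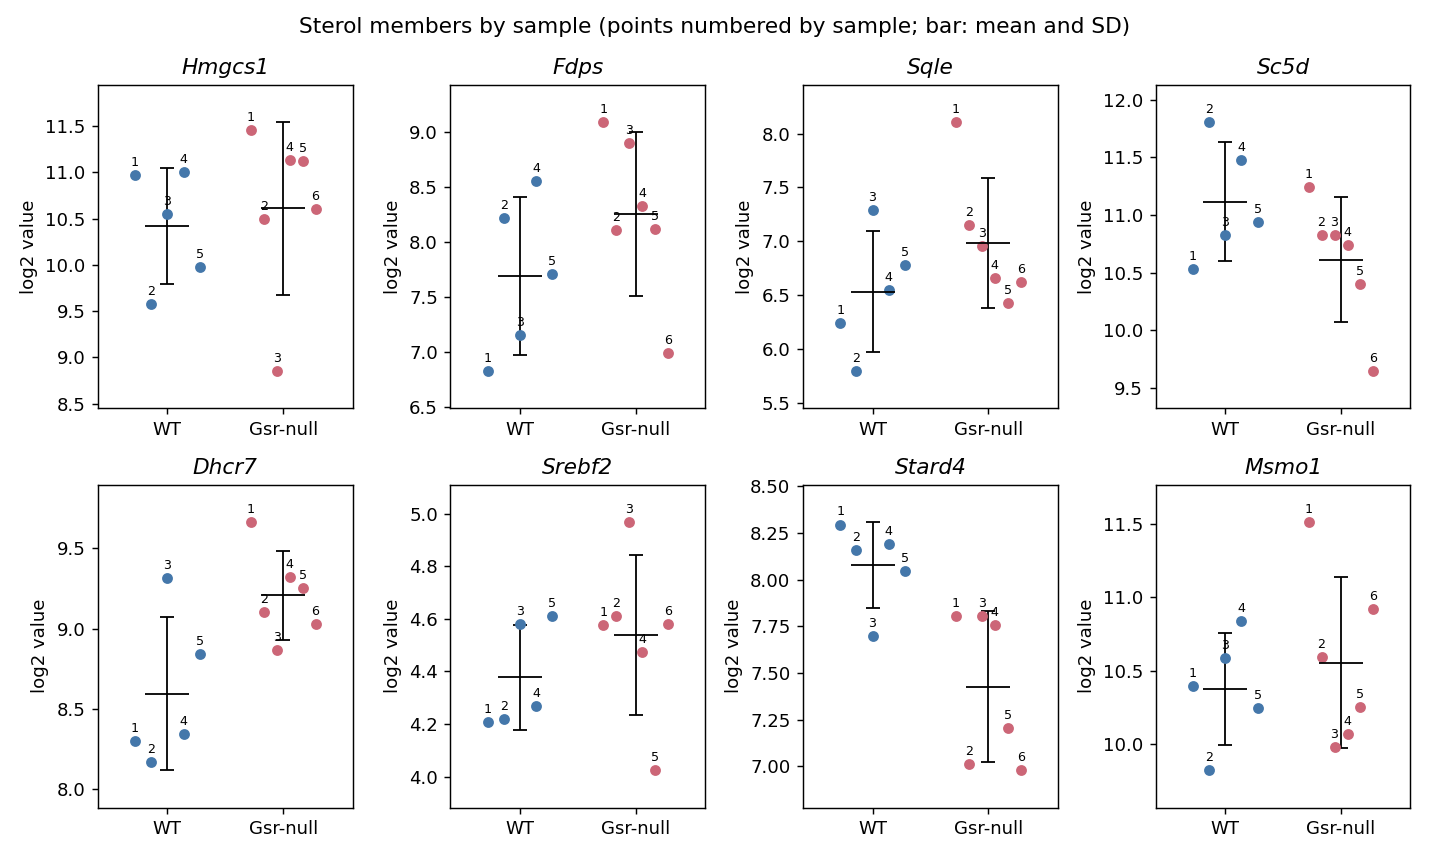
Log2 levels of 8 sterol members in each sample, numbered by biological replicate, with a bar for the mean and lines for the SD (5 WT and 6 Gsr-null samples). Gsr-null 1 is highest for Hmgcs1 (11.45), Sqle (8.11), Dhcr7 (9.66) and Msmo1 (11.52), and only WT 3 overlaps the other genotype for Dhcr7 (9.32) and Stard4 (7.70).

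The fatty acid members set the Gsr-null samples apart from each other. In Gsr-null 4, 11 of the 14 tested members lay above every WT sample, or 78.6%, against 21.4% of all tested probe sets in that sample. These were Acly, Acacb, Fasn, Scd1, Elovl5, Elovl6, Fads1, Fads2, Gpam, Dgat2 and Thrsp. In Gsr-null 5, 10 of 14 did so (71.4%, against 15.0%), all of these but Dgat2. In Gsr-null 6, by contrast, 9 of 14 lay below every WT sample (64.3%, against 34.7% of all tested probe sets), and in Gsr-null 1, 7 of 14 (50%, against 22.7%). The median distance of the 14 members from their WT means was 0.85 in Gsr-null 4 and 0.71 in Gsr-null 5. It was -0.59, -0.39, -0.11 and -0.68 in Gsr-null 1, 2, 3 and 6, and -0.14 to 0.44 in the WT samples. These sample contrasts were seen in the data and not tested.

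**Figure D3:**
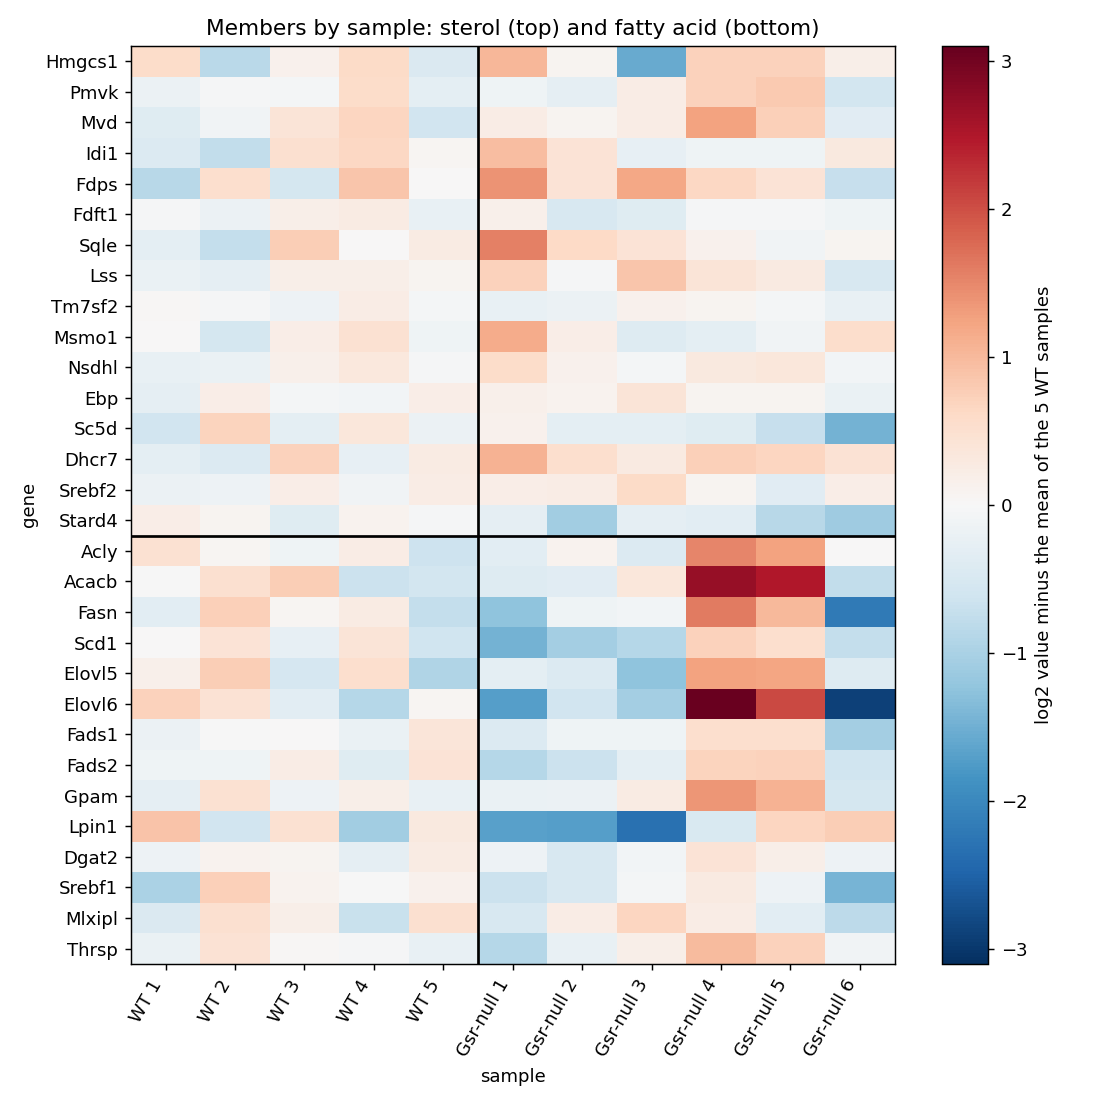
Log2 level of each tested member minus its mean over the 5 WT samples, by sample, with sterol members above and fatty acid members below the black line. Red cells mark levels above and blue cells levels below the WT mean, from 3.05 for Elovl6 in Gsr-null 4 to -2.90 for the same gene in Gsr-null 6.

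At the entry to the route, Acly, which splits citrate to give cytosolic acetyl-CoA, was 11.02, 10.61, 10.40, 10.76 and 9.91 in WT livers. In Gsr-null 1 to 6 it was 10.22, 10.65, 10.10, 12.06, 11.78 and 10.54. Gsr-null 4 and 5 were above all other samples and the rest overlapped. The difference was 0.35 (SE 0.362, limma adjusted p = 0.942), and 3 further tested probe sets gave 0.33, 0.83 and 0.94. Acacb, the acetyl-CoA carboxylase of the mitochondrial surface, was 4.71, 5.21, 5.47, 4.04 and 4.14 in WT and 4.30, 4.35, 5.06, 7.42, 7.20 and 3.94 in Gsr-null samples. Again Gsr-null 4 and 5 alone were high, and the difference of 0.67 had a 95% interval of -0.73 to 2.07. Acaca, the cytosolic carboxylase, was measured by a probe set at 1.82 to 2.57 in WT and 1.35 to 1.90 in Gsr-null samples, far below the filter.

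Fasn, the fatty acid synthase, was 9.89, 10.97, 10.27, 10.47 and 9.49 in WT livers. In Gsr-null 1 to 6 it was 8.97, 10.09, 10.13, 11.83, 11.22 and 8.04, so the Gsr-null samples lay both above and below the whole WT range. The group means of 10.22 ± 0.563 (SD, n = 5) and 10.05 ± 1.40 (SD, n = 6) differed by -0.17 (95% interval -1.44 to 1.09, limma adjusted p = 0.999). Without Gsr-null 6 the difference was 0.23.

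Elovl6, the elongase that turns palmitate into stearate, had the widest spread of the members, and is given by sample for that reason, after its values were seen. It was 8.99, 8.71, 7.93, 7.38 and 8.32 in WT and 6.57, 7.68, 7.22, 11.32, 10.32 and 5.37 in Gsr-null samples. The Gsr-null values covered 5.95 on the log2 scale and the WT values 1.61. The second probe set had SDs of 2.08 and 0.628 in Gsr-null and WT samples. The difference between genotypes was -0.19 (95% interval -2.18 to 1.81).

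Scd1, the desaturase that makes oleate, was 13.29, 13.71, 13.03, 13.68 and 12.67 in WT livers. In Gsr-null samples it was 11.81, 12.23, 12.38, 14.00, 13.78 and 12.54, with 4 of 6 samples below every WT sample and the other 2 above. The difference was -0.48 (SE 0.387, limma adjusted p = 0.887), with -1.55 and 0.45 within the samples of lower and higher control gap. Elovl5, an elongase of polyunsaturated fatty acids, differed by 0.022, and Fads1 and Fads2, the desaturases of the same chains, by -0.12 and -0.18. The second probe set of Fads2 gave 0.079.

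Of the genes that build triglyceride, Gpam, the acyltransferase that starts it, differed by 0.29, with its highest values of 12.48 and 12.20 in Gsr-null 4 and 5. Its second probe set, near the filter level, gave -0.22. Dgat2, which adds the last acyl chain, differed by -0.047 and varied least of the fatty acid members, with a pooled SD within genotypes of 0.274. Pnpla3, a lipid droplet protein under SREBP-1c, did not pass the filter: it was 2.998 to 3.27 in WT samples and 5.54, 3.87 and 3.71 in Gsr-null 4, 5 and 6, while Gsr-null 1, 2 and 3 lay at 2.59 to 2.98.

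Lpin1, the phosphatidate phosphatase lipin 1, followed another order of samples. It was 10.13, 8.65, 9.71, 8.15 and 9.54 in WT livers, and 7.56, 7.53, 6.93, 8.76, 9.89 and 10.004 in Gsr-null 1 to 6. Gsr-null 1, 2 and 3 lay below every WT sample and Gsr-null 4, 5 and 6 within the WT range. These are also the samples of lower and of higher control 3′ to 5′ gap, in which Lpin1 differed by -1.06 and -0.24. The WT samples split by gap in the same direction. WT 2 and 4, of lower gap, were at 8.65 and 8.15, and WT 1, 3 and 5, of higher gap, at 9.54 to 10.13. The part of RNA quality in this order of samples was not tested. The difference was -0.79 (SE 0.587, limma adjusted p = 0.867), and -0.60 with the gap set as a block (limma adjusted p = 0.476). The second probe set gave -1.96 (SE 0.511, limma adjusted p = 0.192), and the mean of both -1.38.

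Of the regulators, Srebf1, which encodes SREBP-1, was 8.73, 10.46, 9.84, 9.72 and 9.86 in WT and 9.05, 9.24, 9.65, 9.996, 9.56 and 8.28 in Gsr-null livers. WT 1 and Gsr-null 6 were the lowest samples and the groups overlapped. The difference was -0.43 (95% interval -1.14 to 0.29). Mlxipl, which encodes ChREBP, differed by -0.082, and Thrsp, the SPOT14 protein of lipogenic tissue, by 0.10, with its highest values of 13.38 and 13.11 in Gsr-null 4 and 5.

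**Figure D4:**
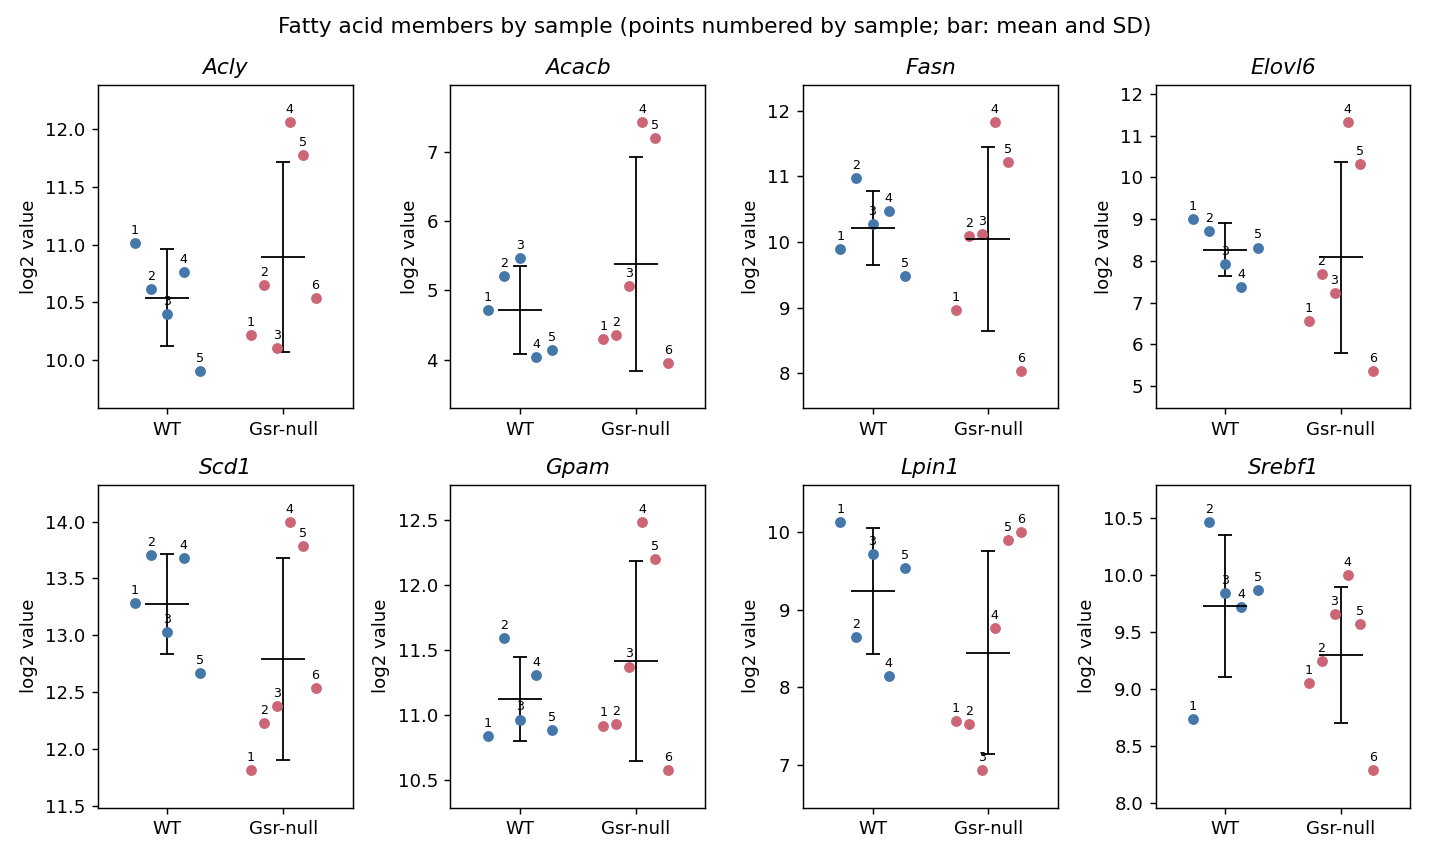
Log2 levels of 8 fatty acid members in each sample, numbered by biological replicate, with a bar for the mean and lines for the SD (5 WT and 6 Gsr-null samples). Gsr-null 4 and 5 are above every WT sample for Acly, Acacb, Fasn, Elovl6, Scd1 and Gpam, whereas Lpin1 separates Gsr-null 1, 2 and 3 (6.93 to 7.56) from the rest.

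Spread within a genotype was larger over the fatty acid than over the sterol members. The pooled SD within genotypes had a median of 0.644 over the 14 fatty acid members, 0.435 over the 16 sterol members and 0.293 over all tested probe sets. Of the fatty acid members 9 were among the tenth of probe sets with the largest SD, and of the sterol members 2, Hmgcs1 and Fdps. The SD was larger in Gsr-null than in WT samples for 12 of 14 fatty acid members, with medians of 0.797 and 0.496. It was so for 13 of 16 sterol members, with medians of 0.479 and 0.360, and for 60.8% of all tested probe sets. These spreads were not tested between genotypes, and they include Gsr-null 6, whose array had fewer probe sets above 4.

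**Figure D5:**
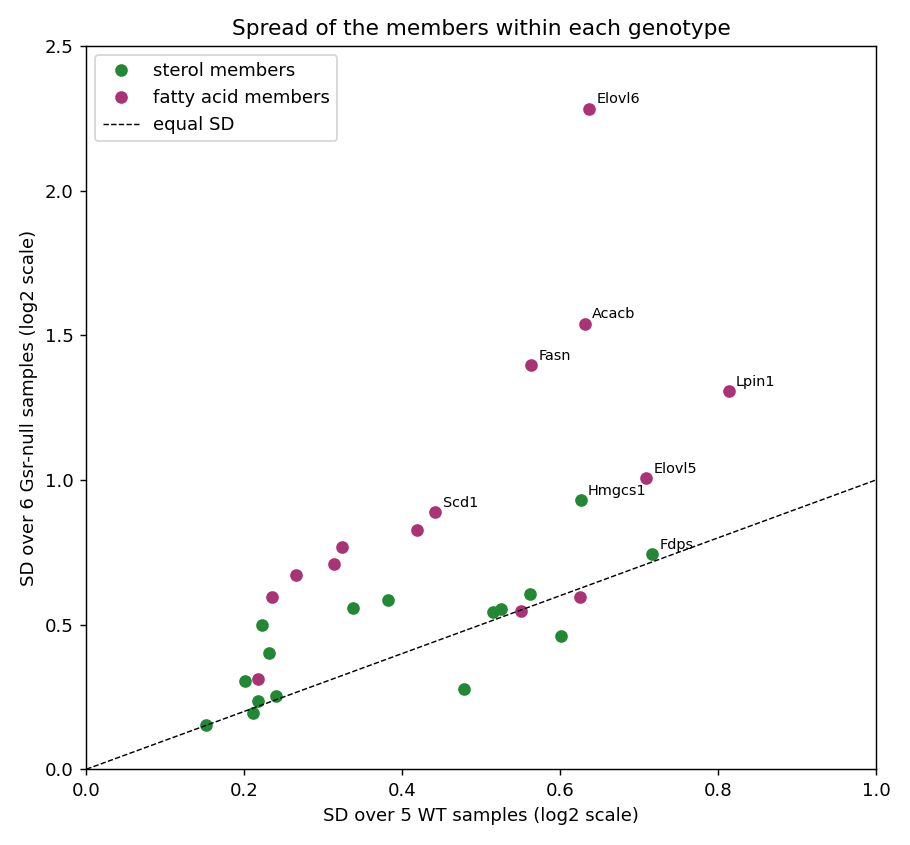
SD over the 6 Gsr-null samples against SD over the 5 WT samples for each tested member, on the log2 scale, with a dashed line where they are equal. Elovl6 lies farthest above the line, at 2.28 against 0.637, followed by Acacb at 1.54 against 0.632 and Fasn at 1.40 against 0.563.

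The fatty acid members varied together and the sterol members less so. With each genotype's mean removed, Pearson's r over the 11 samples had a median of 0.656 across the 91 pairs of fatty acid members and 0.234 across the 120 pairs of sterol members. Between the lists the median was 0.058 over 224 pairs, and over all pairs of tested genes it was 0.064. All pairs share the same 11 arrays, and these medians are descriptions.

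Of 8 pairs chosen by role, Srebf1 and Fasn held after adjustment for both r and rho, and Thrsp and Fasn for rho alone. The deviations of Srebf1 and Fasn gave r = 0.769 (exact two-sided permutation p within genotypes 0.00375, adjusted over 8 pairs 0.03) and rho = 0.80 (exact p = 0.0103, adjusted 0.0413). Without WT 1 and Gsr-null 6, the samples farthest from the Srebf1 median, r was 0.76. Thrsp and Fasn gave r = 0.81 (exact permutation p = 0.0203, adjusted 0.0813) and rho = 0.882 (exact p = 0.00384, adjusted 0.0307), with r = 0.727 without Gsr-null 1 and 4. Fasn and Acly gave r = 0.727 (exact permutation p = 0.0497, adjusted 0.133) and rho = 0.664 (exact p = 0.0623, adjusted 0.166), with r = 0.682 without Gsr-null 4 and 6.

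Pairs on the sterol side and across the lists did not pass, nor, like Fasn and Acly, did Pnpla3 and Srebf1 within the fatty acid list. Hmgcs1 and Sqle gave r = 0.231 (exact permutation p = 0.499) and rho = 0.255 (exact p = 0.473). Srebf2 and Hmgcs1 gave r = -0.588 (exact permutation p = 0.119) and rho = -0.518 (exact p = 0.127), with r = -0.194 without Gsr-null 3 and 5. Hmgcs1 and Fasn gave r = 0.02 (exact permutation p = 0.965) and rho = -0.045 (exact p = 0.91), and Srebf1 and Srebf2 r = 0.0143 (exact permutation p = 0.967) and rho = -0.0091 (exact p = 0.99). Pnpla3 and Srebf1 gave r = 0.27 (exact permutation p = 0.452) and rho = 0.309 (exact p = 0.398), with most Pnpla3 values below the filter. Without the farthest samples r was 0.051 for Hmgcs1 and Sqle, 0.31 for Hmgcs1 and Fasn, -0.183 for Srebf1 and Srebf2, and 0.054 for Pnpla3 and Srebf1. Adjusted over the 8 pairs, p was 0.237 to 0.967 for r of these 5 pairs, and 0.254 to 0.99 for rho.

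The samples did not rank alike on the sterol side. In Gsr-null 1, the sample with 7 fatty acid members below every WT sample, 8 of 16 sterol members lay above every WT sample, against 14.2% of all tested probe sets. They were Hmgcs1, Idi1, Fdps, Sqle, Lss, Msmo1, Nsdhl and Dhcr7. Gsr-null 4 and 5 had 5 each above the WT range (31.3%, against 21.4% and 15.0% of all tested probe sets). Gsr-null 6 had 5 below it (31.3%), near the 34.7% of all tested probe sets. The median distance of sterol members from their WT means was 0.40 in Gsr-null 1, -0.17 in Gsr-null 6 and 0.017 to 0.17 in the other Gsr-null samples, against -0.22 to 0.29 in WT samples.

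Single samples moved the medians of both lists. The fatty acid median of -0.099 became 0.088 without Gsr-null 6, 0.021 without Gsr-null 1, -0.23 without Gsr-null 4 or 5, -0.0051 without WT 2 and -0.048 without WT 5. Without Gsr-null 2 and 3 together it was 0.023. Without Gsr-null 4 and 5 together, a choice made from these genes' values and so a description only, it was -0.51 and the sterol median 0.12. The sterol median of 0.19 stayed positive whichever sample was left out, at 0.107 without Gsr-null 1, 0.12 without WT 2 and 0.288 without WT 4. The genotype medians within the samples of lower control gap (2 WT and 3 Gsr-null) were 0.156 for sterol and -0.443 for fatty acid members. Within those of higher gap (3 and 3) they were 0.0159 and 0.462, so the sign for fatty acid members did not hold in each set.

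Markers of fat cells, which express many of the same genes, were given beside these samples. Of 8 listed markers 6 were measured and 2, Fabp4 and Car3, passed the filter. The summed log2 level was 13.75 to 14.00 in WT and 13.69 to 14.06 in Gsr-null samples. This sum is nearly all Car3, at 13.68 to 14.01 in every liver, and so says little of fat cells. The defining markers were near the array's floor, with Adipoq, which encodes adiponectin, at 1.34 and 1.35 in Gsr-null 4 and 5 against 1.16 to 1.69 in all samples, and Lep, which encodes leptin, at 1.19 to 1.80. Cidec, a lipid droplet protein of fat cells and of fat-laden liver, was 8.46 and 8.04 in Gsr-null 4 and 5 and 2.46 to 3.17 in the other 9 samples. Fabp4 was highest in the same samples, at 7.62 and 7.55 against 5.67 to 7.05. The part of Cidec and Fabp4 in the fatty acid values was not tested.

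Of the other cell types, limma called 0 of 7 tested Kupffer cell, 0 of 4 stellate cell and 0 of 5 endothelial markers. Of all tested probe sets 0.387% were called, so a count of 0 among so few says little. Summed log2 levels in WT and Gsr-null samples were 10.71 to 11.46 and 10.25 to 11.76 for 8 Kupffer cell markers. They were 10.48 to 10.68 and 9.92 to 10.96 for 7 stellate cell markers, and 9.69 to 10.49 and 9.63 to 10.50 for 6 endothelial markers. The stellate sum is mostly Dcn, at 9.45 to 10.34, and the 3 collagens of that list were high in Gsr-null 4 and 5. Col3a1 was 9.07 and 8.81 there, against 5.83 to 8.65 in the other 9 samples, and Col1a1, below the filter, 3.95 and 3.87 against 2.29 to 3.53. Col1a2 was 6.76 and 5.85, against 4.52 to 5.93, and differed between genotypes by 0.89 (SE 0.295, limma adjusted p = 0.363). The rest of the stellate list was not highest in Gsr-null 4 and 5. Dcn was 10.15 and 9.94 there, within the range of the other 9 samples. Reln was 7.56 and 7.65, against 7.33 to 8.31, and Des, below the filter, 3.14 and 3.06, against 2.78 to 3.27. Lrat, also below the filter, was lowest there, at 1.40 and 1.68 against 2.09 to 3.49. Of the endothelial markers Lyve1 alone was highest in Gsr-null 4 and 5, at 5.85 and 5.45 against 2.57 to 5.35. No Kupffer cell marker was highest in both of these samples. The part of these cell types in the fatty acid values was not tested. Lcn2, a secreted acute phase protein, was 13.03, 8.25, 10.27, 5.90, 7.50 and 12.58 in Gsr-null 1 to 6, highest where the fatty acid members were lowest, in samples 1 and 6, and lowest in samples 4 and 5. In WT samples Lcn2 was 3.53 to 5.79, below every Gsr-null sample. The WT medians of the fatty acid members, -0.14 to 0.44, were still below those of Gsr-null 4 and 5. Nor did the opposite order hold throughout the Gsr-null samples. Gsr-null 3 had a higher Lcn2 level than Gsr-null 2 (10.27 against 8.25) and also a higher fatty acid median (-0.11 against -0.39). The part of Lcn2 in the fatty acid values was not tested.

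The wider pathway was taken from 2 further lists. Of 20 other genes of sterol synthesis, its control and sterol transport, 11 were measured and 10 tested, with 5 positive and 5 negative differences, 0 called by limma and 4 at an unadjusted p under 0.05. The whole table had 43.3% positive, 0.387% called and 8.36% at that unadjusted level. Npc1, which exports cholesterol from lysosomes, had the smallest p: it was 8.64 to 9.02 in WT and 7.71 to 8.71 in Gsr-null samples and differed by -0.69 (SE 0.184, limma adjusted p = 0.209). Abcg5, of the biliary sterol exporter, differed by -0.48 (limma adjusted p = 0.509). Insig2, a membrane protein that holds SREBPs back, was 7.99 to 11.19 in WT and 10.10 to 11.43 in Gsr-null samples, a difference of 1.15 (SE 0.449, limma adjusted p = 0.487).

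Of 25 other genes of fatty acid and glycerolipid synthesis, 21 were measured and 20 tested. Insig2 and Nr1h3 are counted in both lists. There were 10 positive and 10 negative differences, 0 called by limma and 4 at an unadjusted p under 0.05. These counts are to be read against the same 43.3%, 0.387% and 8.36% of all tested probe sets. Ppargc1b, a coactivator of SREBPs, was 5.36 to 6.21 in WT and 3.95 to 5.41 in Gsr-null samples and differed by -0.79 (SE 0.255, limma adjusted p = 0.343). Lpin2, a second lipin, was 9.84, 9.96, 10.05, 9.59 and 10.05 in WT samples. In Gsr-null samples it was 8.40, 8.26, 8.43, 9.84, 9.90 and 9.17, with samples 4 and 5 within the WT range and the other 4 below it. Lpin2 differed by -0.90 (SE 0.308, limma adjusted p = 0.389).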

How the data were processed

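The authors deposited 1 log2 value per probe set and sample, made with GCRMA per the submitters' processing notes. Its version, filters, scan dates and batches are not given in the sources used here. The scale was read as log2 from the range of the values and their like quantiles across arrays, and it compresses low signals. The 64 control probe sets were left out of tests. The genotypes were compared by limma's moderated linear model (version 3.58.1, lmFit, eBayes, R 4.3.3) over 9560 probe sets, with an adjusted p under 0.05 as a call, and the fit was tested on simulated data. Precision is limited by the number of arrays, 5 and 6. The labels call the samples biological replicates. Probe sets ending in _s_at, _x_at or _a_at can bind related transcripts and represent 8 members, namely Pmvk, Mvd, Fdft1, Lss, Msmo1, Acly, Srebf1 and Mlxipl. Of 18 further tested probe sets of 14 members, 16 had the sign of the representative one. Members, lists and tests were chosen with earlier results of these data known. All 34 members are named. Sample values are given for the 5 members of each list with the largest difference and for a set of main enzymes and regulators, and of the wider lists the 3 genes with the smallest p are named. Figures used matplotlib 3.10.9 in Python 3.11.15. RefSeq tables of GRCm38.p6 gave promoter sequences. Alternatives covered filters, scaling, variance models, blocks, probe set choice, threshold and omitted samples.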

Additional observations from a re-analysis of the deposited data

Results flagged for a closer look

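Of 78 groups of values, 39 genes in each genotype, 2 held a sample set apart by a wide gap; by chance about 3.9 would. Hmgcs1 was 8.86 in Gsr-null 3, while the 5 remaining Gsr-null samples lay at 10.49 to 11.45. Ppargc1b was 3.95 in the same sample, and 4.91 to 5.41 in the rest.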

How the results depend on the processing

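No member of either list was called under any alternative, and the lowest adjusted limma p was 0.111, for Scd1 at -1.03 without Gsr-null samples 4 and 5 together. Of 417 values of the 30 tested members under alternatives other than the omission of 1 sample, 402 kept their sign and 15, of 12 members, changed it. The sterol median was 0.12 to 0.24 and the fatty acid median -0.51 to 0.095. The cause of these changes was not tested, except that omissions and stricter filters leave fewer samples or probe sets. With array weights Fasn was 0.19 and Elovl6 0.35. With the replicate block, which drops Gsr-null 6, the fatty acid median was 0.088, Fasn 0.23, Elovl6 0.36, Fads1 0.072 and Mlxipl 0.061. Without Gsr-null samples 2 and 3 together Elovl6 was 0.13 and Dgat2 0.073. Without Gsr-null samples 4 and 5 together, chosen after seeing the data, Hmgcs1 was -0.064, Pmvk -0.19, Acly -0.16, Acacb -0.30, Elovl5 -0.59, Gpam -0.17 and Thrsp -0.26. Omission of 1 sample changed the sign of 10 members: Hmgcs1 (-0.016 to 0.54), Pmvk (-0.010 to 0.27), Msmo1 (-0.012 to 0.30), Fasn (-0.53 to 0.23), Elovl5 (-0.23 to 0.28), Elovl6 (-0.83 to 0.36), Fads1 (-0.24 to 0.072), Dgat2 (-0.14 to 0.042), Mlxipl (-0.26 to 0.061) and Thrsp (-0.069 to 0.30).

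Over all probe sets 37 were called, 14 with the filter at 6, 7 without Gsr-null samples 2 and 3, 57 without samples 4 and 5, 3 with the replicate block and 14 to 37 with 1 sample left out. The replicate block rests on a shared number alone. Over the 5 numbers, the correlation between a WT and a Gsr-null sample's deviations was -0.173, 0.0361, -0.0561, -0.243 and -0.171, and in 0 of 5 numbers was it the highest.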

Other observations

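Further genes that supply fatty acid synthesis were high in Gsr-null 4 and 5, and are named after their values were seen. Pklr, the liver pyruvate kinase, was 9.30 and 9.09 in these samples, against 6.70 to 8.30 in the other 9. Acss2, an acetyl-CoA synthetase, was 10.48 and 10.37, against 8.80 to 10.28. Aacs, the acetoacetyl-CoA synthetase, was 7.92 and 7.74, against 3.91 to 7.14. Me1, the malic enzyme that makes NADPH, was 11.45 in Gsr-null 4 and 10.86 in Gsr-null 5, against 8.55 to 10.94 in WT samples, so that WT 2 lay above Gsr-null 5, and 7.26 to 9.06 in the other Gsr-null samples. None of these 4 genes passed the limma test between genotypes, with adjusted p of 0.942 to 0.996. Not all of the wider fatty acid list was high in Gsr-null 4 and 5. Elovl3 was 8.37 and 8.13 there, against 7.75 to 11.85 in the other 9 samples. Mlx was 5.73 and 5.68, against 5.22 to 6.69. Elovl1, Elovl2, Mid1ip1 and Ppargc1b also lay within the range of the other 9 samples.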
